A study of Mus musculus with 9 samples.

Results

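The serpins, cystatins and Kazal-type proteins of the lateral nasal gland were followed across wild-type 129/Sv, wild-type B6 and Cyp2g1-null males. The members were all Affymetrix probe sets with a single platform symbol naming a serpin of clades A to I (Serpina to Serpini), a numbered Spink or Cst gene, a Stfa gene, Csta or Cstb. The rule found 51 of 22626 probe sets, for 41 of the 12393 genes named: 39 probe sets for 30 serpin genes, 10 for 9 cystatin and stefin genes, and 2 for 2 Spink genes. Another 3 probe sets that carry a matching symbol beside other symbols were left out.

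Cyp2g1 encodes a cytochrome P450 of the nasal mucosa, and the study asked what its loss changes in this large secretory gland of the nose. RNA was hybridised to 9 arrays. They comprised 2 arrays of wild-type 129/Sv mice, 4 of wild-type B6 mice (C57BL/6) and 3 of Cyp2g1-null mice on a mixed background of 129/Sv and C57BL/6. All mice were males aged 2 to 3 months, and each array held the pooled glands of 10 mice, so spread between arrays is spread between pools. The null line differs from either control by background as well as by genotype, and these cannot be told apart in a comparison with 1 strain.

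Serpins are large proteins that trap a serine protease, or in some cases a cysteine protease, after it cleaves their exposed reactive loop. Some serpins have lost inhibition and act as hormone carriers, chaperones or growth factors. Cystatins and stefins block the papain-like cysteine cathepsins of the lysosome and of secretions, and Kazal proteins of the Spink family block trypsin-like enzymes. In mice, several serpin groups, the Serpina1 and Serpina3 genes among them, have been multiplied into clusters of close paralogs, so a probe set can also catch a neighbouring paralog's RNA.

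Signals are MAS5 values on a linear scale that had been brought to a common level, with array medians between 518.6 and 550.0. Correlations between arrays ran from 0.925 to 0.942 across probe sets, which are not independent replicates. Obp1a, an odorant-binding protein of this gland, had mean signals of 129522 in 129/Sv, 143871 in B6 and 128752 in null arrays. Summed signals of listed plasma and liver genes, such as albumin, lay between 812.7 and 1289 on all arrays. Fewer cells of a type and less RNA per cell cannot be told apart in these samples.

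Most of the family was dim. A probe set was tested when it exceeded its array's median signal on at least 2 arrays, and 14 of the 51 members did so (27.5%), compared with 55.6% of all probe sets. Of the 14, which stand for 11 genes, 11 exceeded the median on all 9 arrays. A further 35 members never exceeded an array's median, and 2, Serpinb6b and Cst6, did so on 1 array each. No detection calls were used here, so dim is not the same as absent. Probe sets also differ in brightness for the same amount of RNA, so signals are compared below between arrays and not between genes.

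**Figure D1:**
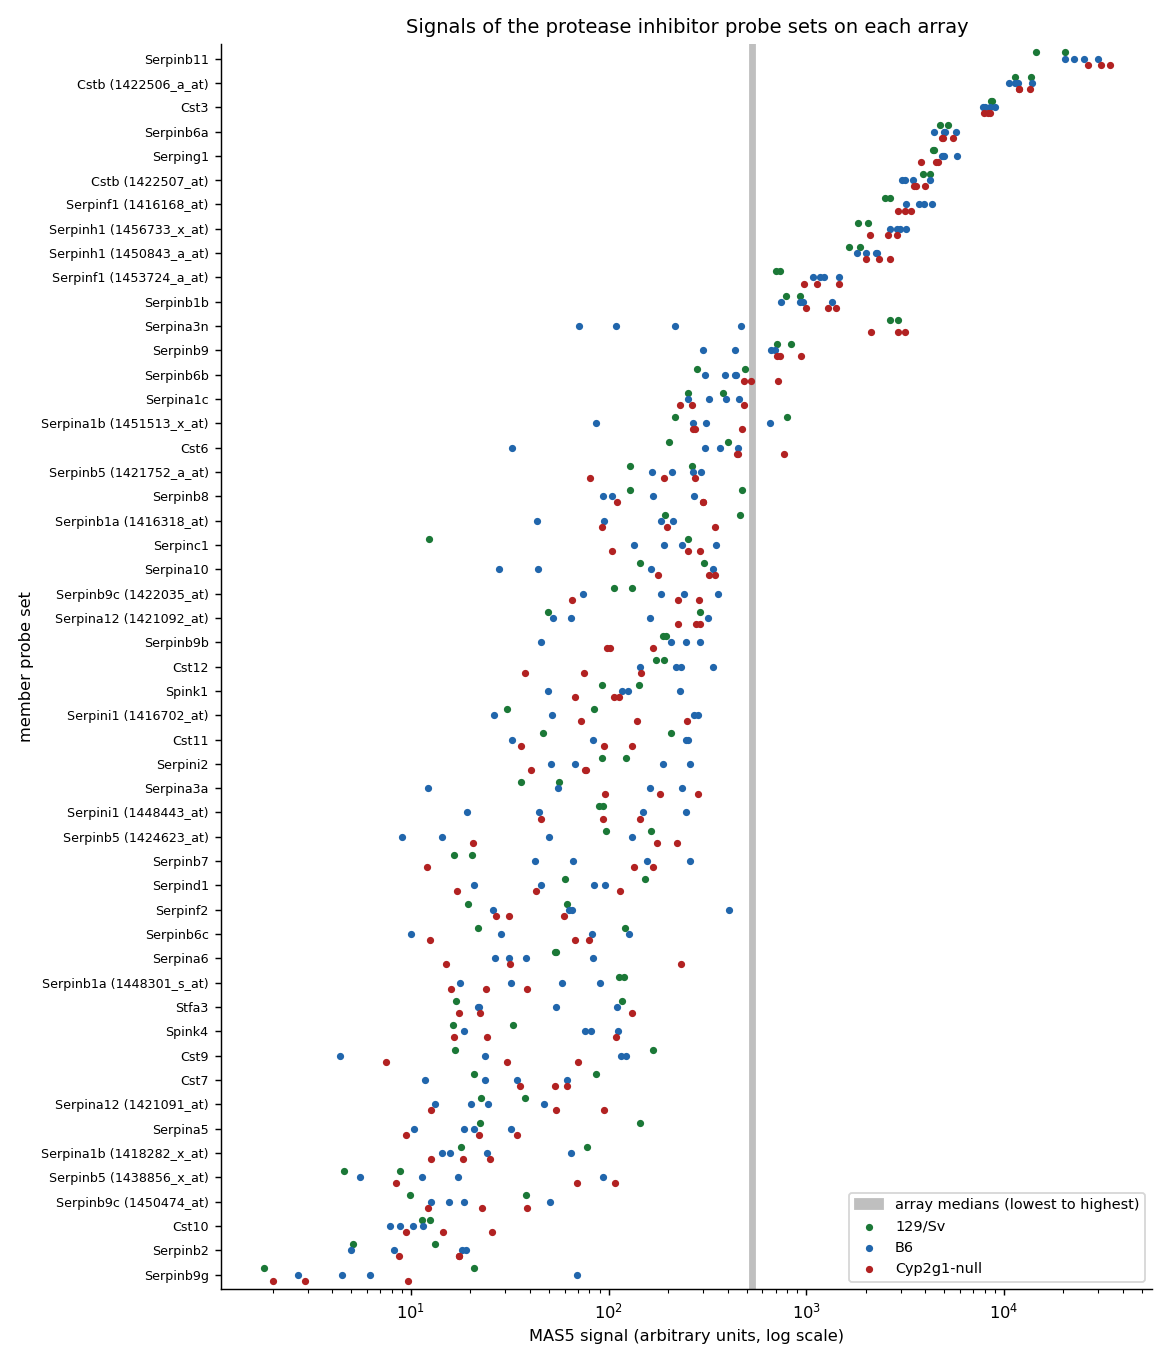
MAS5 signals (log scale) of the 51 member probe sets on each of the 9 arrays, ordered by mean log2 signal, with 1 point per array coloured by group; the grey band spans the array medians, 518.6 to 550.0. For Serpina3n the 4 B6 arrays lie below the band and the 5 arrays of the other groups above it.

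The dim members include many serpins that the liver releases into plasma. Among them are Serpinc1 (antithrombin), Serpind1 (heparin cofactor II), Serpinf2 (alpha-2-antiplasmin), Serpina6 (corticosteroid-binding globulin), Serpina5 (protein C inhibitor), Serpina10 (protein Z-dependent protease inhibitor) and Serpina1c (an alpha-1-antitrypsin paralog). The clade B serpins under the filter were Serpinb1a, Serpinb2, Serpinb5 (maspin), Serpinb6b, Serpinb6c, Serpinb7, Serpinb8, Serpinb9b, Serpinb9c and Serpinb9g. Both clade I genes (Serpini1, neuroserpin, and Serpini2), Spink1, Spink4, Stfa3, Cst6, Cst7, Cst9, Cst10, Cst11 and Cst12 were also dim, as were Serpina12 (vaspin), Serpina3a and a Serpina1b probe set. Mean signals of the 37 members under the filter ran from 12.4 to 452.8, with a median of 97.9. Their single signals ran from 1.8 to 770.9 and scattered widely between arrays of the same group. Serpinf2, for example, stood at 407 on B6 array 3 and between 19.4 and 65.3 on the other 8 arrays. With all 51 members tested and no filter, 0 of these 37 passed in any of the 3 comparisons (limma with Benjamini-Hochberg adjustment). With the filter, 2.18% of all tested probe sets were called in null against B6, 2.04% in null against 129/Sv and 5.19% between the strains. At such shares and with signals this scattered, 0 calls say little about these members.

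Serpina3n, a mouse counterpart of human alpha-1-antichymotrypsin that inhibits neutrophil and granule proteases and rises in the acute-phase response, showed the widest range among the tested members. It was singled out with its strain dependence already known, so its values are given as a description. Signals were 2910.3 and 2663.3 on the 129/Sv arrays. The null arrays gave 3171.1, 2118 and 2906.7. The B6 arrays gave 108.7, 71, 218.1 and 470.2, all under their array's median. Every B6 array thus lay below every other array, and the null and 129/Sv signals overlapped.

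The null arrays averaged 2732 ± 547.9 (SD, n = 3), the 129/Sv arrays 2787 ± 174.7 (SD, n = 2) and the B6 arrays 217.0 ± 180.0 (SD, n = 4). Differences here and below are on the log2(signal + 16) scale, which understates changes of dim probe sets. Null arrays exceeded B6 by 3.85 (SE 0.43, 95% interval 2.93 to 4.77, limma adjusted p = 0.000243). B6 minus 129/Sv was -3.90 (SE 0.48, adjusted p = 0.00019). These 2 comparisons share the B6 arrays. Null and 129/Sv differed by -0.05 (95% interval -1.15 to 1.05, adjusted p = 0.988), an interval that still allows a 2-fold difference either way. Among 12575 probe sets tested, Serpina3n had the 5th largest rise from B6 to null arrays and the 7th largest deficit in B6 against 129/Sv.

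Serpina3n passed the signal filter only through 129/Sv and null arrays, so part of its difference from B6 was fixed by the filter. Without a filter its adjusted p was 0.000383 against B6 and 0.000349 between the strains. B6 signals spread from 71 to 470.2 under the array medians, which leaves the size of the fold uncertain. Without B6 arrays 3 and 4 the null difference was 4.70, and without B6 arrays 1 and 2 it was 3.01. Both calls were kept in all 9 fits that left out 1 array, with adjusted p-values up to 0.00299 for null against B6 and 0.00626 between the strains. The array reports hybridisation to probes whose sequences, and whose match to each strain and to the other Serpina3 genes, were not used here, so the gene behind the signal is uncertain.

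**Figure D2:**
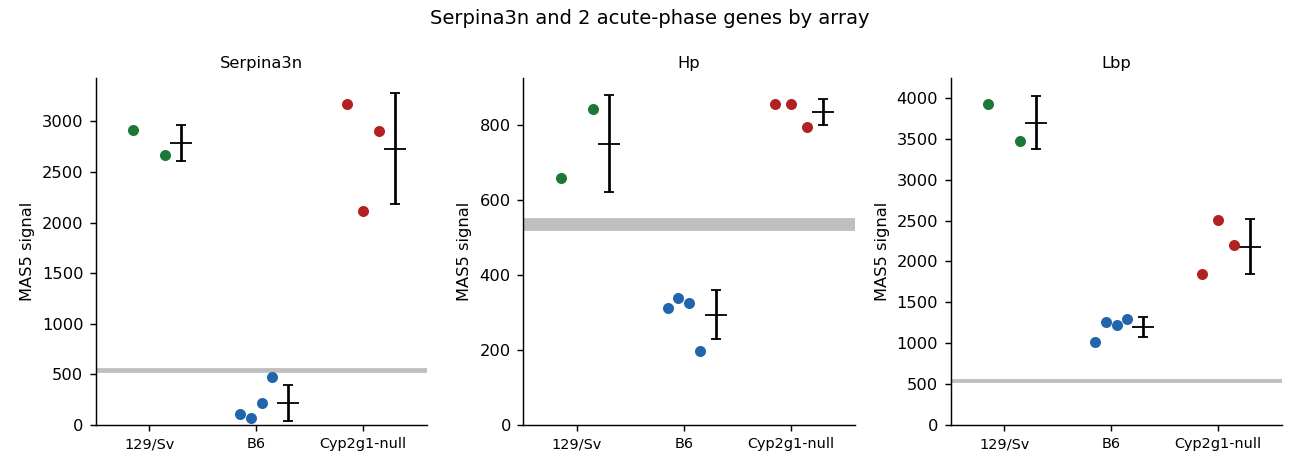
MAS5 signals of Serpina3n, Hp and Lbp on each array of the 3 groups (points), with the group mean and SD (bars; n = 2, 4 and 3); the grey band spans the array medians. All B6 signals of Serpina3n and Hp lie under the band, and Lbp runs from B6 through null to 129/Sv.

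Serpina3n lies on chromosome 12 within the Serpina cluster. To show the reference sequence in front of the strain-dependent member and of Serpinb11, described after it, the bases upstream of both annotated genes are given 5′ to 3′ from RefSeq (GRCm38.p6, which is C57BL/6J sequence), at chr12:104406458-104406645 and chr1:107362064-107362313, both on the + strand. Capitals mark matches, on either strand, to the letters AGAACA (bound by steroid receptors), TTCNNNGAA (the STAT palindrome), TATAAA or CCAAT.
Serpina3n: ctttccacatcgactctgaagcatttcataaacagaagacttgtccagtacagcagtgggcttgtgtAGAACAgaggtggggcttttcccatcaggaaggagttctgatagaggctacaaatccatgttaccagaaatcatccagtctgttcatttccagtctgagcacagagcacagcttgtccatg
Serpinb11: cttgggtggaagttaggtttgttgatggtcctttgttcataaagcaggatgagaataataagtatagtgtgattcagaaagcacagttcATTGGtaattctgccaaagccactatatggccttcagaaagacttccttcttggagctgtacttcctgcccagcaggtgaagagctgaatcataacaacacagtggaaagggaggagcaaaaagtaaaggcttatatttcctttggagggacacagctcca
The 188 bases before Serpina3n held 1 AGAACA, which 12.6% of 32851 promoter windows of that length also hold. They held 0 matches to the other 3 motifs, found in 5.49% (TTCNNNGAA), 8.65% (TATAAA) and 26.4% (CCAAT) of windows. The 250 bases before Serpinb11 held 1 CCAAT on the opposite strand, present in 33.8% of windows of that length. AGAACA, TTCNNNGAA and TATAAA, held by 16.1%, 7.02% and 12.4% of those windows, had 0 matches there. The motifs do not overlap each other.

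By a rule chosen after seeing the data, the 10 nearest tested genes to Serpina3n were taken, 5 on each side in RefSeq order. Of their 15 probe sets, 0 passed in any of the 3 comparisons, with strain differences between -0.62 and 0.33. Over all probe sets, 2.18% were called in null against B6, 2.04% in null against 129/Sv and 5.19% between the strains. At these shares, 0 calls among 15 probe sets say little about the region. One of the 10 genes was another member, Serpina1b, an alpha-1-antitrypsin paralog. Its tested probe set had signals of 797.5 and 216.6 on the 129/Sv arrays, of 86.3, 266.5, 311.7 and 657.7 on the B6 arrays, and of 273.9, 473.3 and 268.9 on the null arrays. All 3 groups overlapped, and the strains differed by -0.62 (SE 0.69, adjusted p = 0.718). Another Serpina1b probe set stayed between 12.7 and 78.2 on all arrays and was not tested. Both are of the x_at type. Serpina3a, the other Serpina3 gene with a probe set of its own, stayed between 12.2 and 281.9 on all arrays and was not tested.

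In the acute-phase list, 11 of 24 genes on the array had tested probe sets, 21 in all. A further 12 genes never exceeded an array's median, Saa1, Saa2, Saa3, Lcn2, Orm1 and Orm2 among them. Against B6, 3 probe sets were higher in null arrays and 0 lower (1.11% and 1.07% of all probe sets). They stood for Hp (haptoglobin), Lbp (the lipopolysaccharide-binding protein) and Cp (ceruloplasmin). Hp averaged 835.1 ± 34.5 (SD, n = 3) on null arrays, 749.6 ± 129.3 (SD, n = 2) on 129/Sv arrays and 294.0 ± 65.0 (SD, n = 4) on B6 arrays. Its null and B6 arrays differed by 1.48 (adjusted p = 0.00563) and its strains by -1.32 (adjusted p = 0.0146), and it too passed the filter only outside B6. Lbp was intermediate in null arrays, with means of 3701 in 129/Sv, 1198 in B6 and 2182 in null arrays. It passed in all 3 comparisons, with null above B6 by 0.85 (adjusted p = 0.00368) and below 129/Sv by a difference of -0.77 (adjusted p = 0.0259), and B6 minus 129/Sv at -1.62 (adjusted p = 1.68e-05). Of 7 Cp probe sets, 1 passed (0.76, adjusted p = 0.0346) and the other 6 gave 0.07 to 0.50 without passing. Between the strains, 1 probe set of the list was higher in B6 and 2, of Hp and Lbp, were lower (2.92% and 2.27% of all probe sets). Signs were mixed, with 9 probe sets positive, 12 negative and a median difference of -0.06. The higher one was Nfil3, a transcription factor, with B6 above 129/Sv by 1.44 (adjusted p = 0.00586). Null against 129/Sv called 1 higher, Nfil3 by 1.57 (adjusted p = 0.00966), and 1 lower, Lbp (1.41% and 0.628% of all probe sets).

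Macrophage and neutrophil markers, which cover cells that make and meet these inhibitors, had mixed signs in null against B6. Of 9 tested probe sets, 3 were positive and 6 negative, with 52.9% of all probe sets positive. The list's summed signal, most of it from Lyz2, was 37750.3 to 43914 in 129/Sv, 32603 to 36363 in B6 and 38769.9 to 45674 in null arrays. Of the 9, 0 were lower in null than in B6 arrays and 1 was higher (1.07% and 1.11% of all probe sets). It was Lyz2, a lysozyme of myeloid and some gland cells, with 0.49 (adjusted p = 0.0115), and the list's median difference was -0.27. In B6 against 129/Sv Lyz2 gave -0.42 (adjusted p = 0.0343). Of the 14 listed genes, 6 never exceeded an array's median, the neutrophil genes Elane, Mpo and Cxcr2 among them. The part of these cells in the Serpina3n difference was not tested.

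Serpinb11, a clade B serpin that in mice inhibits trypsin-like proteases, was higher in null than in 129/Sv arrays. It was 1 of 14 tested members called in that comparison, in which 2.04% of all probe sets were called, 1.41% higher and 0.628% lower in null arrays. The 129/Sv arrays gave 20448.5 and 14583.7, the B6 arrays 29989.5, 25415.4, 20447.7 and 22601.7, and the null arrays 30864.5, 34480.4 and 26561. The null arrays all lay above the 129/Sv arrays, and B6 overlapped both groups. Null exceeded 129/Sv by 0.82 (SE 0.17, 95% interval 0.46 to 1.18, adjusted p = 0.0202), a 1.76-fold difference. Null exceeded B6 by 0.32 (SE 0.14, adjusted p = 0.311), and B6 exceeded 129/Sv by 0.50 (SE 0.16, adjusted p = 0.101), neither of which passed. Leaving out 129/Sv array 2 ended the call (0.57, adjusted p = 0.316), as did leaving out null array 1 (adjusted p = 0.0718) or null array 2 (adjusted p = 0.0974). Fitting the spread with no trend on signal gave an adjusted p of 0.121.

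Markers of other epithelia were set beside Serpinb11. All 7 tested ciliated-cell markers had positive null minus 129/Sv differences (median 0.46), of which 0 passed (1.41% of all probe sets were called higher). The markers' summed signal was 13700.5 to 16061 in 129/Sv, 12367 to 15394 in B6 and 19690.3 to 20754 in null arrays. Against B6, 4 of the 7 were higher in null arrays (1.11% of all probe sets), and the summed signals did not overlap between null and either strain. Of 8 tested basal, duct and squamous probe sets, 1 was higher in null than in 129/Sv arrays (1.41% of all probe sets), and the list's median was -0.05. It was Sfn (stratifin), with a difference of 2.06 (adjusted p = 0.0479). Sfn lay at 206.1 and 68 on the 129/Sv arrays and passed the filter only through 1 B6 and 2 null arrays, so part of this difference was fixed by the filter. Their part in the Serpinb11 difference was not tested. Of 13 probe sets of the 10 nearest tested genes to Serpinb11 on chromosome 1, 1 was lower in null than in 129/Sv arrays (0.628% of all probe sets). It was Pam, a peptide-amidating enzyme, at -2.29 (adjusted p = 0.000111), named after its value was seen. Pam was lower in B6 than in 129/Sv as well, at -2.57 (adjusted p = 9.98e-06), and null minus B6 was 0.29 (adjusted p = 0.557).

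**Figure D3:**
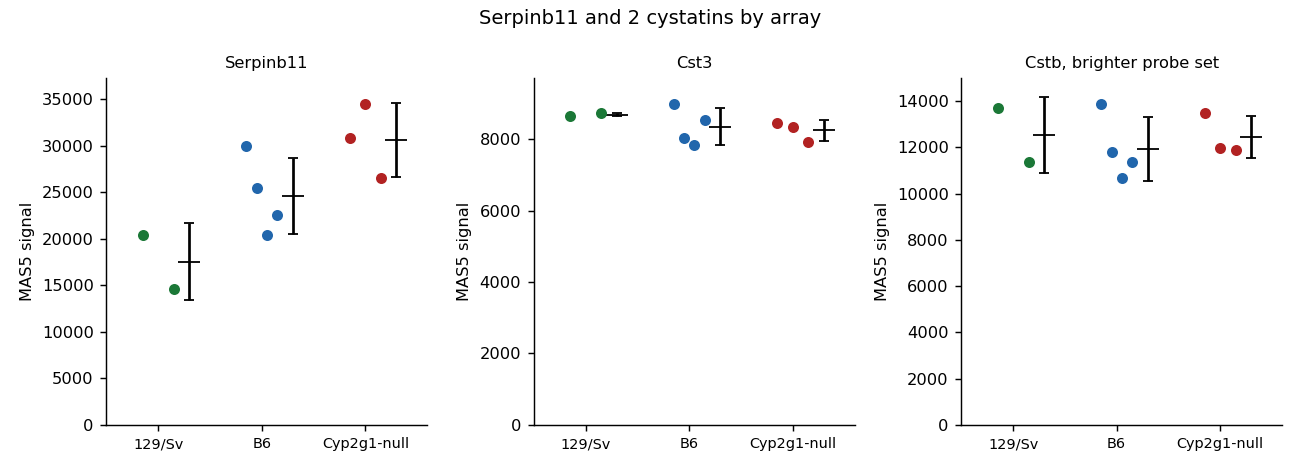
MAS5 signals of Serpinb11, Cst3 and 1 Cstb probe set on each array of the 3 groups (points), with the group mean and SD (bars; n = 2, 4 and 3). The Serpinb11 signals of the null arrays, 26561 to 34480, lie above both 129/Sv arrays, and the Cst3 signals of all 9 arrays lie between 7847 and 8980.

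Between the wild-type strains, 4 of the 14 tested members passed, while 5.19% of all probe sets did. Serpina3n was lower in B6, and both Serpinf1 probe sets and 1 of 2 Serpinh1 probe sets were higher in B6. Serpina3n was singled out for this difference and passed the filter only outside B6, and both Serpinf1 calls are of the same gene. The count of 4 is therefore a description. The members' median difference was 0.10, and that of all probe sets was -0.01.

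Serpinf1 encodes PEDF, a secreted serpin without inhibitory activity that restrains vessel growth. The brighter of its 2 probe sets had signals of 2499.1 and 2665.2 on the 129/Sv arrays, of 4345.7, 3189.7, 3714.3 and 3932.3 on the B6 arrays, and of 3392.9, 2899.8 and 3159 on the null arrays. Both 129/Sv arrays lay below all others, and null and B6 overlapped. B6 exceeded 129/Sv by 0.54 (SE 0.13, 1.46-fold, adjusted p = 0.0284). The dimmer gave 700.2 and 740.1 (129/Sv), 1458.9, 1224, 1178.5 and 1086.9 (B6), and 977.4, 1127.9 and 1471.3 (null). Again only the 129/Sv arrays stood apart, with a strain difference of 0.76 (SE 0.19, 1.69-fold, adjusted p = 0.0308). Null exceeded 129/Sv by 0.28 and 0.69 at these probe sets, without passing (adjusted p = 0.463 and 0.114).

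Serpinh1, known as HSP47, is a chaperone of the endoplasmic reticulum that helps procollagen fold. The brighter of its 2 probe sets had signals of 2052.5 and 1820.8 on the 129/Sv arrays, of 2881.6, 2657.3, 3189.7 and 2984.5 on the B6 arrays, and of 2103, 2593.1 and 2863.4 on the null arrays. The strains did not overlap and differed by 0.59 (SE 0.14, 1.51-fold, adjusted p = 0.0254), while the null arrays spanned the gap between them. The dimmer probe set gave 1640.5 and 1864.6 (129/Sv), 2259.9, 2002.6, 1807.7 and 2272.8 (B6), and 2649.2, 2330 and 1997.6 (null). Its strains overlapped, with a difference of 0.25 (SE 0.15, adjusted p = 0.448), so the gene's 2 probe sets gave different calls.

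Serpinf1 and Serpinh1 are made by connective tissue cells, so stromal and endothelial markers were set beside them. Of 15 tested probe sets of 10 such genes, 4 were higher in B6 than in 129/Sv and 0 lower (2.92% and 2.27% of all probe sets), with a median difference of 0.48. They stood for Col1a1, Col1a2 and Col3a1, fibrillar collagen chains, and Eng, an endothelial receptor. Col3a1 rose from 6974 ± 693.1 (SD, n = 2) in 129/Sv to 11689.8 ± 324.3 (SD, n = 4) in B6 and was 8819.6 ± 837.2 (SD, n = 3) in null arrays (strain difference 0.75, adjusted p = 0.000525). A dimmer Col3a1 probe set gave 0.25 (adjusted p = 0.694). Summed signals of the list were 77058 to 81966 in 129/Sv, 91850.4 to 115467 in B6 and 77136 to 92393 in null arrays. In null against B6, Col1a1, Col1a2 and Col3a1 each had 1 probe set lower (-0.65, -0.62 and -0.41), while Serpinf1 gave -0.26 and -0.06 and Serpinh1 -0.22 and 0.15 without passing. In null against 129/Sv the list's median was -0.007, with 7 probe sets positive, 8 negative and 0 called (2.04% of all probe sets). There Serpinf1 gave 0.28 and 0.69 and Serpinh1 0.37 and 0.40, also without passing. The part of these cells in the Serpinf1 and Serpinh1 differences was not tested.

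The Serpinf1 and Serpinh1 calls depended on single arrays. Leaving out 129/Sv array 1 ended all 3 (adjusted p = 0.207 and 0.19 for Serpinf1, 0.0855 for Serpinh1), as did leaving out 129/Sv array 2 (0.125, 0.144 and 0.244). The calls of the brighter probe sets of both genes were also lost without B6 array 3 or 4, and that of the dimmer Serpinf1 probe set without B6 array 1, 2 or 3. The differences themselves stayed between 0.48 and 0.82 in all fits that left out 1 array.

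**Figure D4:**
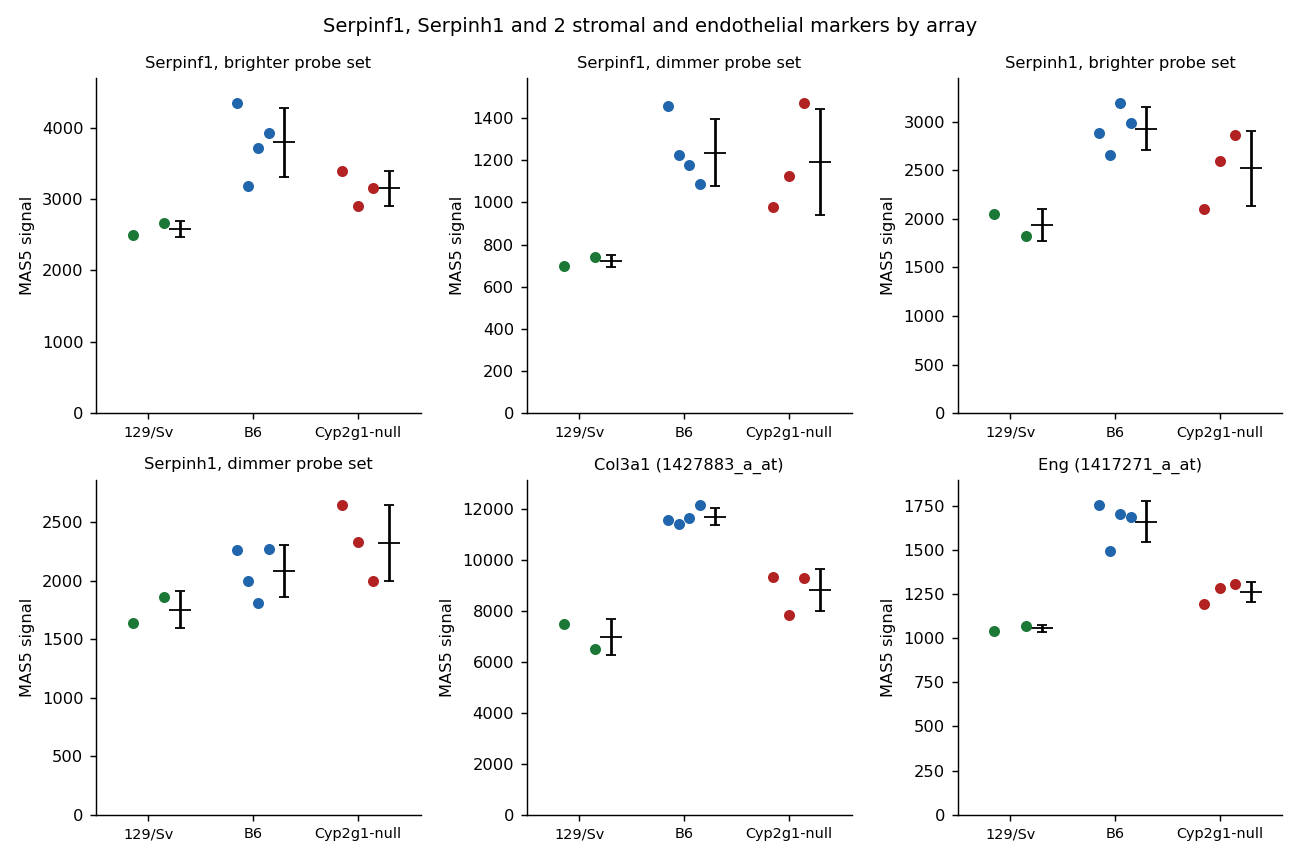
MAS5 signals of the Serpinf1 and Serpinh1 probe sets and of Col3a1 and Eng on each array of the 3 groups (points), with the group mean and SD (bars; n = 2, 4 and 3). Both 129/Sv arrays lie below all B6 arrays in every panel except that of the dimmer Serpinh1 probe set, where the strains overlap.

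Serping1, the C1 inhibitor that controls complement C1 and plasma kallikrein, had signals of 4398.4 and 4432.6 on the 129/Sv arrays, of 5825.7, 4898.5, 4985.5 and 4855.2 on the B6 arrays, and of 4631, 3816.6 and 4538.5 on the null arrays. The B6 arrays lay above all others, by 0.21 over 129/Sv (adjusted p = 0.392) and with null minus B6 at -0.25 (SE 0.11, adjusted p = 0.295), neither of which passed. Serpinb9, an intracellular inhibitor of granzyme B, had signals of 712.9 and 839.5 on the 129/Sv arrays, of 299.8, 660, 437.6 and 697.5 on the B6 arrays, and of 944.2, 710.9 and 740.2 on the null arrays. All B6 arrays lay below all others, as for Serpina3n, but the null minus B6 difference of 0.66 (SE 0.28) did not pass (adjusted p = 0.289).

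Serpinb6a, an intracellular inhibitor of cathepsin G and trypsin-like proteases, and Serpinb1b, a paralog of the leukocyte elastase inhibitor, showed no call. Serpinb6a had signals of 5193 and 4731.5 (129/Sv), 5747.7, 4455.2, 4957.7 and 5017.9 (B6), and 5504.1, 4918.4 and 4874.1 (null). All groups overlapped, with differences of 0.02 in null against B6, 0.04 in null against 129/Sv and 0.02 between the strains. Their 95% intervals stayed within -0.24 and 0.31. Serpinb1b had signals of 926.7 and 791.1 on the 129/Sv arrays, of 1353.5, 967.3, 930 and 748.9 on the B6 arrays, and of 1295.4, 996.9 and 1417.8 on the null arrays. Its null arrays lay above both 129/Sv arrays, but the difference of 0.51 (SE 0.24) did not pass (adjusted p = 0.421).

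Cst3 and Cstb were the cystatins bright enough to test, and neither was called. Cst3, the secreted cystatin C, had signals of 8656.8 and 8718.9 on the 129/Sv arrays, of 8980.1, 8024, 7846.6 and 8548.5 on the B6 arrays, and of 8463.8, 8347.4 and 7911.2 on the null arrays. The null arrays all lay below both 129/Sv arrays, with a difference of -0.08 that did not pass (adjusted p = 0.854), and B6 overlapped both. Its highest array stood 1.14-fold above its lowest, the narrowest range among the tested members, and null and B6 differed by -0.02 (95% interval -0.20 to 0.16, adjusted p = 0.955). Cstb, the intracellular cathepsin inhibitor stefin B, had signals at the brighter of 2 probe sets of 13708.8 and 11384.4 (129/Sv), 13873.6, 11798.2, 10656.1 and 11367.4 (B6), and 13480.4, 11971 and 11876.3 (null). The dimmer one gave 4251.3 and 3892 (129/Sv), 3475.6, 3179.2, 4215.1 and 3067.9 (B6), and 3514.1, 4010.3 and 3605.5 (null). All groups overlapped at both. The Cstb differences ran from -0.23 to 0.10 over both probe sets and all 3 comparisons, with adjusted p-values from 0.419 to 0.993. By comparison, the highest array stood 2.36-fold above the lowest for Serpinb11 and 44.7-fold for Serpina3n.

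**Figure D5:**
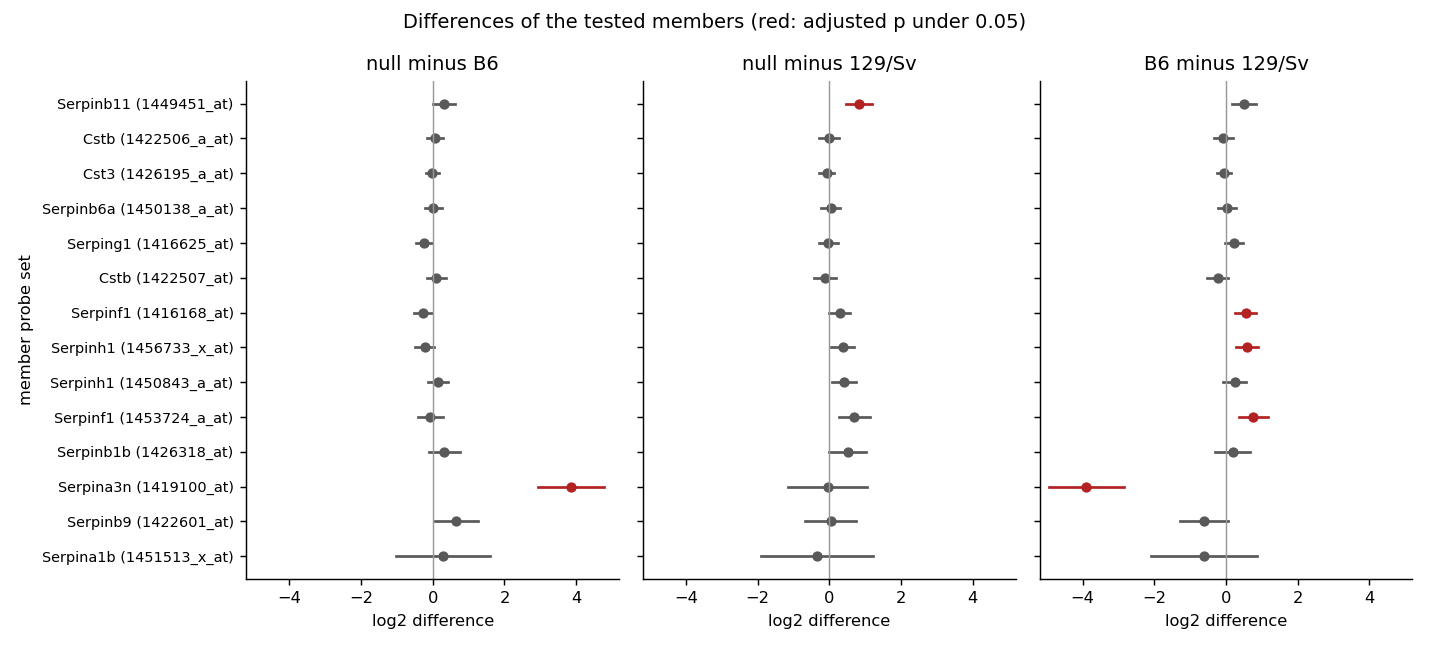
Differences on the log2(signal + 16) scale (points) with 95% intervals from limma (lines) for the 14 tested member probe sets in the 3 comparisons, red where the adjusted p is under 0.05. Serpina3n stands near 4 in size in both comparisons with B6, the intervals of Cst3 and Cstb cover 0, and null minus B6 and B6 minus 129/Sv share the B6 arrays.

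Over the whole set, null against B6 called 1 of 14 tested members, Serpina3n, with 2.18% of all probe sets called. Serpina3n was singled out beforehand and passed the filter only outside B6, so this count is a description. No member passed against both strains in the same direction (0 of 14; 0.0954% of all probe sets, limma). An unadjusted p under 0.05 was reached by 5 of the 14 against B6 (14.4% of all probe sets), by 4 against 129/Sv (12%) and by 1, Serpinb11, against both in the same direction (2.51%). The 5 include Serpina3n and the 4 include both Serpinh1 probe sets, so these counts are a description as well. The median member difference was 0.08 against B6 and 0.04 against 129/Sv, compared with 0.016 and 0.003 over all probe sets.

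Proteases, among them those that these inhibitors act on, were tested as lists. A list of cathepsins, legumain and calpains includes the targets of cystatins. The calpains and the aspartic protease Ctsd in it are not targets of Cst3 or Cstb. Of its 18 tested probe sets of 12 genes, 1 was higher in B6 than in 129/Sv (2.92% of all probe sets) and 1 lower in null than in B6 (1.07%). Both calls were Ctsl, cathepsin L, which averaged 18579 ± 551.6 (SD, n = 4) on B6 arrays, 12198 ± 221.9 (SD, n = 2) on 129/Sv arrays and 13056 ± 2024 (SD, n = 3) on null arrays. Ctsl differed by 0.61 between the strains (adjusted p = 0.00457) and by -0.52 in null against B6 (adjusted p = 0.0114). Its inhibitors Cst3 and Cstb did not pass in either comparison.

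The serine protease list had 21 tested probe sets of 15 genes, among them F3 (tissue factor), a cofactor and not a protease. Of the 21, 6 were lower in B6 than in 129/Sv (2.27% of all probe sets) and 4 higher in null than in B6 (1.11%), all glandular kallikreins. Both Klk1b5 probe sets and that of Klk1b21 lay under the array median on every B6 array and passed the filter only through 129/Sv and null arrays, so part of their difference from B6 was fixed by the filter. Klk1b5 differed between the strains by -2.81 at 1 probe set (adjusted p = 0.0347) and -1.90 at the other (adjusted p = 0.00866). Klk1b11 differed by -1.54 (adjusted p = 0.000113) and Klk1b21 by -1.18 (adjusted p = 0.0297). Klk1b11 exceeded the median on all 9 arrays. Against B6, null arrays were higher for 1 Klk1b5 probe set by 1.51 (adjusted p = 0.032; the other gave 2.46, adjusted p = 0.0623), for Klk1b11 by 1.28 (adjusted p = 0.000597) and for Klk1 by 0.65 (adjusted p = 0.0369). Another Klk1 probe set gave -0.0039 in null against B6 and 0.30 between the strains, and these kallikreins are close paralogs that probe sets may not separate. Null against 129/Sv called 0 of the 21 probe sets in the serine protease list and 0 of the 18 in the cathepsin list. As 2.04% of all probe sets were called there, these counts of 0 say little.

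The list of other protease inhibitors had 24 tested probe sets of 15 genes, such as Slpi, Timp2, Timp3 and A2m (alpha-2-macroglobulin). Of the 24, 0 passed between the strains and 0 in null against 129/Sv (5.19% and 2.04% of all probe sets). At these shares, 0 calls among 24 probe sets say little. In null against B6, 1 was lower (1.07% of all probe sets). It was 1 of 4 probe sets of Timp3, an inhibitor of matrix metalloproteinases, at -0.51 (adjusted p = 0.0479), and the other 3 gave -0.34, -0.21 and -0.07 without passing.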

How the data were processed

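The authors deposited linear intensities from MAS5, a tool named without a version in the submitters' processing notes. The 2% trimmed mean was 1500.6 on every array. Of 22690 probe sets, 64 controls were left out; 20380 of the other 22626 had 1 symbol, 691 several and 1555 none in the platform annotation. All 51 members' gene IDs were found in the RefSeq table, which changed 0 symbols.

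Signals became log2(signal + 16), without further normalization. Of all probe sets, 12575 exceeded the array median on at least 2 arrays. Group means were fitted with limma 3.58.1 in R 4.3.3 (eBayes with trend), with 1 spread shared by all 9 arrays. The two-sided p-values were adjusted by Benjamini-Hochberg over all 12575, with a threshold of 0.05. The fit was tested on simulated data.

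Values per array were given for Serpina3n, members past the threshold and the 12 brightest members, and Serpinb9 and Serpina1b were added as the remaining tested members. From each pathway list, up to 3 called genes with the largest differences were named. Members and lists were chosen with earlier results of these data known. Same-numbered arrays did not deviate together, so no pairing was used. No batch is given, and the number of arrays limits the precision. Where nothing says pools were prepared separately, p-values measure only the spread between these arrays.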

Additional observations from a re-analysis of the deposited data

Results flagged for a closer look

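Serping1, the C1 inhibitor, stood out on 1 of the 4 B6 arrays. B6 array 1 had a signal of 5825.7, and the gap to the next array took up 0.866 of the group's whole range, above Dixon's 95% critical value for 4 arrays. The other 3 B6 arrays lay between 4855.2 and 4985.5. This was 1 of 14 tested members examined in this way, and chance flags about 1 in 20 groups.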

How the results depend on the processing

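Across 25 alternatives, null against B6 called 1 member and null against both strains 0 in each of them. The 1 member called in null against 129/Sv, Serpinb11, fell to 0 at an adjusted p of 0.01, with an added 2-fold threshold and with no trend in eBayes, and ranged from 0 to 1 when 1 array was left out. The 4 members called between the strains became 1 under the same 3 settings and 2 once probe sets able to match several transcripts were dropped, and ranged from 1 to 4 when 1 array was left out. With the replicate number as a block the strain count was 2 (Serpina3n and Serpinb11, the latter at 0.65, adjusted p = 0.0157); the arrays share only a number, so this pairing has no basis in the labels.

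Serpina3n in null against 129/Sv ranged from -0.165 to 0.1243 when 1 array was left out. Among the other named members, values changed sign in 27 of 792 cases, none of them called, with a size of at most 0.1256. For the brighter Cstb probe set they were 0.0132 with quantile normalization and 0.0518 with the block in null against 129/Sv, and 0.0066 with the block between the strains. Serpinb6a turned to -0.0052, -0.0218 and -0.0166 with equal array medians, in null against B6, null against 129/Sv and between the strains. Cst3 in null against B6 turned to 0.0010 with array weights and 0.0083 without B6 arrays 1 and 2. Without that pair, the dimmer Serpinf1 probe set gave 0.0535 in null against B6 and Serpinb1b -0.0362 between the strains. Without B6 arrays 3 and 4, an alternative chosen after seeing the data, Cstb gave -0.0426 in null against B6 and 0.0343 between the strains, and Serpinb11 passed between the strains (adjusted p = 0.0392). When 1 array was left out, null against B6 ranged from -0.0466 to 0.0181 for Cst3, from -0.0385 to 0.0836 for Serpinb6a and from -0.225 to 0.0662 for the dimmer Serpinf1 probe set. Null against 129/Sv ranged from -0.1421 to 0.1256 for Cstb, from -0.0285 to 0.1053 for Serpinb6a and from -0.085 to 0.054 for Serping1. Between the strains the range was -0.208 to 0.0597 for Cstb and -0.0476 to 0.0862 for Serpinb6a. The causes were not tested. Signal near background limits the 37 dim members most.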
